A study of Homo sapiens with 40 samples.

Results

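Interferon response and MHC class I genes were followed in human myeloma and lymphoma lines that carried an inducible shRNA against CASP10, the gene of caspase-10. The members were a list of 50 genes, taken wherever the probe-to-gene table of the array gave their symbol. Of these, 40 were measured, with 121 of the 15246 probes (34 genes had more than 1 probe and 6 had 1), among 4604 named genes in all. STAT2, IRF7, USP18, IFITM2, OASL, IFI27, PSMB8, PSME2, HLA-C and HLA-F had no probe under their symbol and were not analysed here. The study asked which genes follow caspase-10 signalling in multiple myeloma. SKMM1, H929 and KMS12 are established lines of multiple myeloma, a cancer of plasma cells; OCI-Ly7 and OCI-Ly19 come from B-cell lymphomas. All lines were transduced with retroviral vectors and selected with puromycin, and the shRNA was switched on with doxycycline (20 ng/ml) for 24 to 120 hours. Each of the 40 arrays compared Cy5-labelled RNA of induced cells with Cy3-labelled RNA of uninduced cells of the same line, vector and day, except that 4 SKMM1 arrays had induced cells with a control shRNA (shCtrl) in the Cy3 channel. The hairpin shCasp10-2 was used in SKMM1 (12 arrays in 3 repeats, 1 of them without a repeat number, and the 4 against shCtrl), H929 (8 arrays in 2 repeats, 2 of them without a number), KMS12 (4), OCI-Ly7 (2) and OCI-Ly19 (2), and shCasp10-3 in H929 (4) and KMS12 (4). The labels do not say whether a line was 1 clone. A log ratio within a line gives no level, so the lines could not be checked against their markers.

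Interferons are secreted proteins that bind receptors on the cell surface and, through JAK kinases, activate STAT and IRF transcription factors. Type I interferon acts mainly at the interferon-stimulated response element, which IRF9 helps to bind, and interferon gamma at the gamma-activated site. The genes switched on include antiviral enzymes and the machinery that cuts proteins into peptides (immunoproteasome), moves the peptides into the endoplasmic reticulum (TAP1, TAP2), loads them (TAPBP) and shows them on HLA class I molecules with their light chain, B2M.

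Values are log2 ratios of induced over reference cells, so below 0 means less RNA after induction. The labels name the dyes, while the log base and the direction of the ratio are the likely reading and are not stated. Induced cells always carried Cy5, and any bias of the dyes therefore enters each value set against 0. CASP10 itself lay below 0 on 21 of the 24 myeloma arrays of days 2 to 4 against uninduced cells (median -0.36, range -3.56 to 0.35) and on all 4 arrays against shCtrl (-0.74 to -0.43). On the 2 arrays labelled OCI-Ly7 it lay above 0 (mean 1.77, highest 2.04), which goes against the label of a knockdown. The arrays differed in spread: on 12 of 40, over 10% of the probes lay beyond 3 in size, and these are called wide arrays. Among the 24 myeloma arrays of days 2 to 4 there were 8 wide ones, including all 3 of SKMM1 repeat 2. Over all probes, Pearson's r between arrays of SKMM1 repeats 2 and 3 ran from -0.44 to -0.16, and 87 of all 780 pairs of arrays were under -0.3. The labels state the same dyes and conditions for both repeats, so their direction is not settled; it was kept as deposited, and values with either sign turned are given where they change a result. A course is the set of days of 1 line, hairpin and repeat; nothing says that its days came from separate cultures, and p-values measure the spread between these samples, which may be technical. How many arrays there are sets the precision.

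The promoters of the members whose values the results turn on are shown first, because most members share a short element there. RefSeq promoter windows (GRCh38.p14, 250 bases before to 50 after the gene's start) matched 32 of the 40 members. They were searched on both strands for the core of the interferon-stimulated response element (GAAA, any 2 bases, GAAA), TTCNNNGAA (letters of a gamma-activated site) and TGACGC (letters found in the X2 box of class I promoters), whose matches may overlap each other; matches are in capitals.
UBE2L6, chr11:57567886-57568185, minus strand: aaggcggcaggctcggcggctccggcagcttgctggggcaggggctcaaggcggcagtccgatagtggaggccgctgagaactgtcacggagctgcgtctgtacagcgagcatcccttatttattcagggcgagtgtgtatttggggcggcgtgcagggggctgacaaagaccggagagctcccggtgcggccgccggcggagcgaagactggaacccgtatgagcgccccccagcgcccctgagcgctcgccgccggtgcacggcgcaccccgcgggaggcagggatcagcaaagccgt
HLA-B, chr6:31357130-31357429, minus strand: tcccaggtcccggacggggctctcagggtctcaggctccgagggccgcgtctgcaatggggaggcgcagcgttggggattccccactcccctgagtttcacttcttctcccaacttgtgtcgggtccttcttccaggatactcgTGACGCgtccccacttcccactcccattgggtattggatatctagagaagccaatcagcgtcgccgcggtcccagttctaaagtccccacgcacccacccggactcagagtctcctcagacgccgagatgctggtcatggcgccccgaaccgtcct
B2M, chr15:44711267-44711566, plus strand: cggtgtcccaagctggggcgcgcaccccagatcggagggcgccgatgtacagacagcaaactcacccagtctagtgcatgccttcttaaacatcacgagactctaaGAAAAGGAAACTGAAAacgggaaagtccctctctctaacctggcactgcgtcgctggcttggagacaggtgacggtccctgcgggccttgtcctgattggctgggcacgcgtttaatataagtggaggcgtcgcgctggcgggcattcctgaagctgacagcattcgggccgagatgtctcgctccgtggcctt
TAP2, chr6:32838690-32838989, minus strand: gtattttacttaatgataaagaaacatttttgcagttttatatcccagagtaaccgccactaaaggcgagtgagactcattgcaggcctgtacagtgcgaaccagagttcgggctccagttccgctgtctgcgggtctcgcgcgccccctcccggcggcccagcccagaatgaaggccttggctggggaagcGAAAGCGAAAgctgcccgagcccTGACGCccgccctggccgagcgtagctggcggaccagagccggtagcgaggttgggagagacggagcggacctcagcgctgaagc
PSMB9, chr6:32853942-32854241, plus strand: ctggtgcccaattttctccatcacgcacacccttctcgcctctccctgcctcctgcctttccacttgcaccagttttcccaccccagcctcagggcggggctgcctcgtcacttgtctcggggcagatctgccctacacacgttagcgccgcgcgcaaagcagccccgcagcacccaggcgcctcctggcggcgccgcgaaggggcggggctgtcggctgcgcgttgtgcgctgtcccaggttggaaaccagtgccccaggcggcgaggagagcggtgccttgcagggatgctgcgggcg
BST2, chr19:17405581-17405880, minus strand: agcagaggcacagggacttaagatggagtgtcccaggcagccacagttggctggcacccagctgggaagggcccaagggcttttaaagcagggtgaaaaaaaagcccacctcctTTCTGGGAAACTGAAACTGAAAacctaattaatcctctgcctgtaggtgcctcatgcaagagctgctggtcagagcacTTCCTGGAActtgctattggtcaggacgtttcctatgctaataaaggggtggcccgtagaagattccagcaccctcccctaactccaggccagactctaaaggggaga
OAS3, chr12:112938224-112938523, plus strand: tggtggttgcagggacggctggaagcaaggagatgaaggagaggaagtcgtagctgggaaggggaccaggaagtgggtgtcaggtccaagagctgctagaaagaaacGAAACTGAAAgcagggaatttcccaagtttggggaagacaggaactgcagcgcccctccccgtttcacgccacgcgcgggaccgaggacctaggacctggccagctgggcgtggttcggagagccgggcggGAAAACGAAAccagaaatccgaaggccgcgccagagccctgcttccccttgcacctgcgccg
The response element core was present in 21 of the 32 member promoters, against 3.57% of 35116 promoters of the same length, and 12 of the 21 held it more than once. It stood in 6 of the 8 promoters of the class I machinery (B2M, TAP1, TAP2, TAPBP, PSMB10 and PSME1) and in 15 of the 24 promoters of the other members. TTCNNNGAA was in 6 of the 32, against 7.66% of all promoters, and TGACGC in 2, HLA-B and TAP2, against 9.14%. ADAR, IFI16, PSMB9, SAMHD1, SP100 and UBE2L6 held none of the 3 in these windows. PSMB9 and TAP1 are divergent neighbours whose windows share 13 bases. A match is a description of letters and not a bound site.

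**Figure D1:**
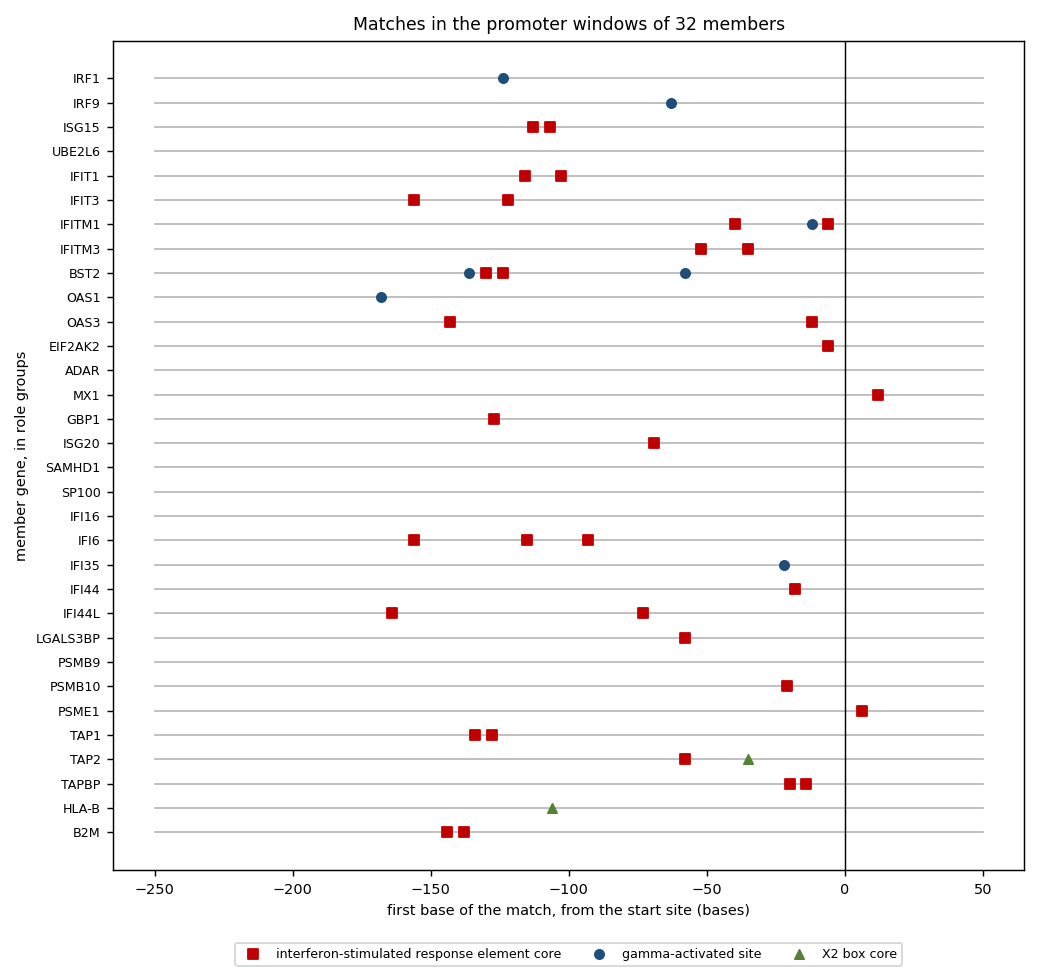
Positions of the matches in the promoter windows of 32 members. The horizontal axis is the distance of the first matched base from the gene's start in bases, and each row is a member; squares are cores of the interferon-stimulated response element, circles gamma-activated site letters and triangles X2 box letters. Squares appear in 21 of the 32 rows, and 6 rows are empty.

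On course means of days 2 to 4, no member passed the test in any of the 9 comparisons, and no other feature did. In the myeloma response (the mean of the 3 lines, 8 courses), 0 of 40 members were called at an adjusted p of 0.05 (limma, Benjamini-Hochberg over 9681 features; 0% of all features), and 4 members had an unadjusted p under 0.05, against 5.6% of all features. The same counts were 0 and 3 in SKMM1 (2.56% of features at the unadjusted p), 0 and 0 in H929 (2.12%), 0 and 0 in KMS12 (0.94%), and 0 and 4 against shCtrl (2.78%). They were 0 and 0 between SKMM1 and the other myeloma lines (1.08%), 0 and 2 between the hairpins (1.93%), 0 and 2 between myeloma and lymphoma (6.76%), and 0 and 2 for the change per day (11%). The members' median estimate in the myeloma response was -0.36, against -0.27 over all features. Of the members, 36 of 40 were below 0, as were most of all features, given their median. Without wide arrays the members' median was -0.12, against 0.02 over all features, and 27 of 40 were below 0. The exact share of all features below 0 is not given here for either fit. No member lay below 0 in all 8 courses, and none lay above 0 in all 8, against 3.01% and 0.496% of all features. Without the wide arrays, 7 courses remained; again no member had 1 sign in all of them, against 4.19% (below) and 2.53% (above) of all features.

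**Figure D2:**
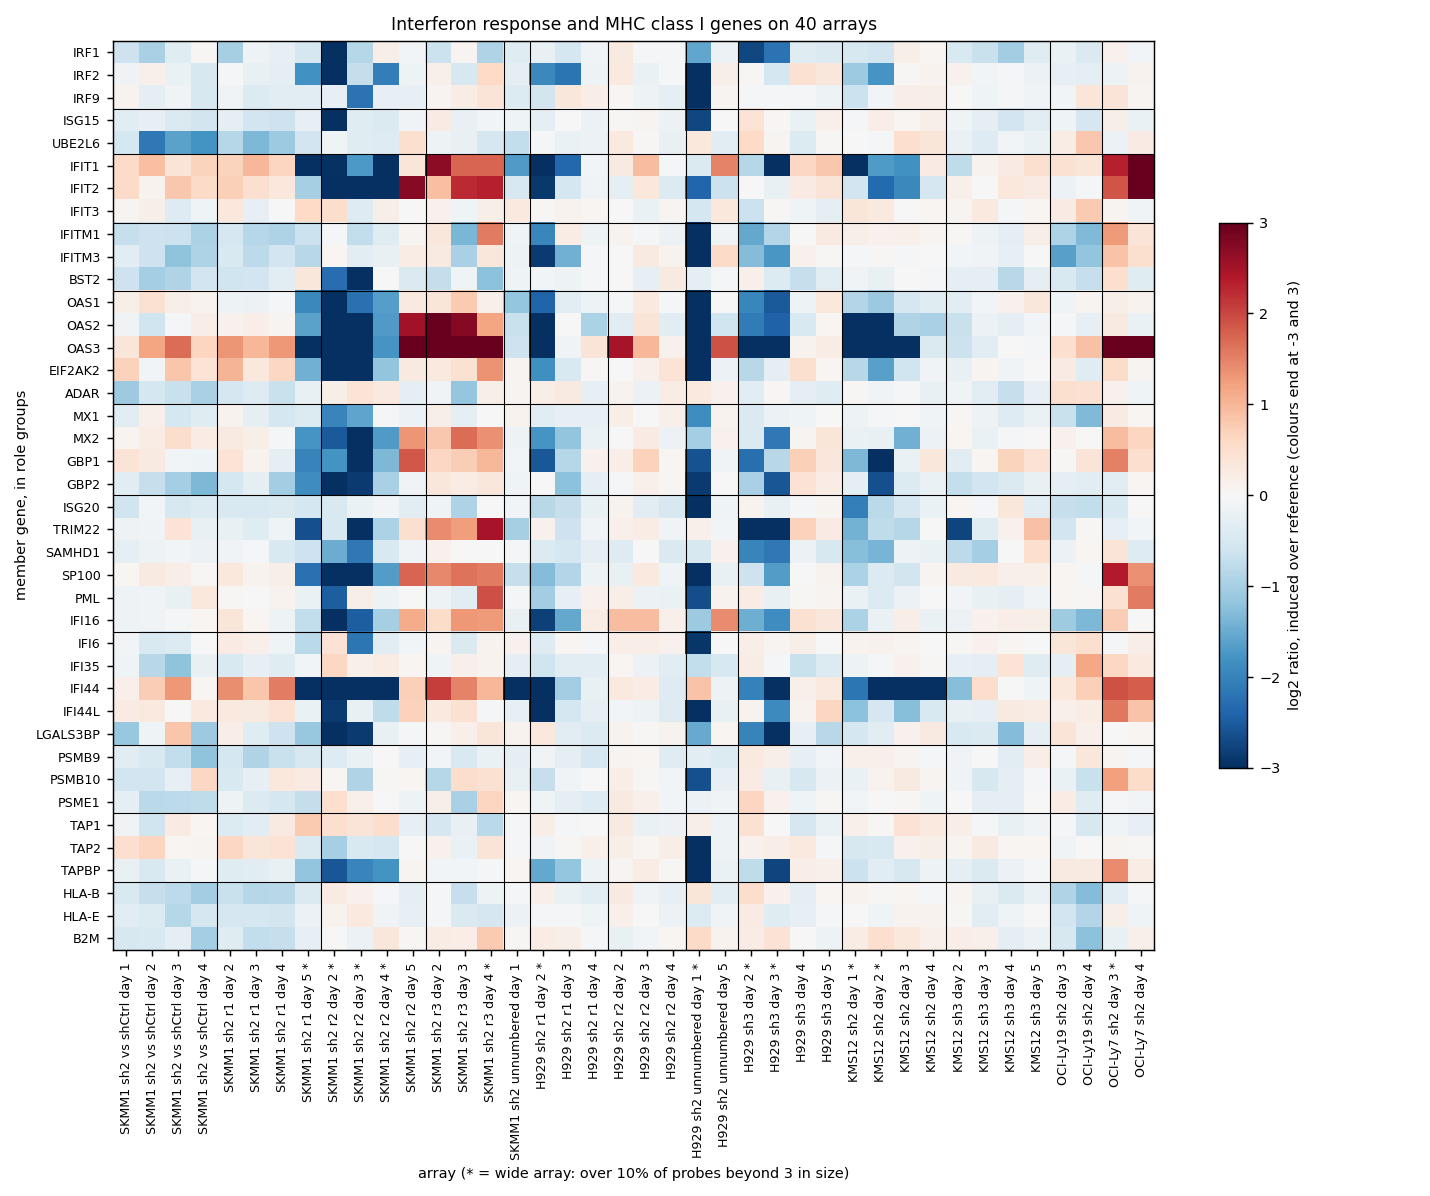
Log2 ratios of the 40 measured members (rows, in role groups) on all 40 arrays (columns, by line, hairpin, repeat and day). Blue is below 0 and red above 0, the colours end at -3 and 3, and a star marks the 12 wide arrays. Antiviral genes such as OAS3, IFIT1 and IFI44 run from dark blue to dark red between columns, while HLA-B, HLA-E and B2M at the bottom stay pale, bluest in SKMM1 repeat 1, the shCtrl arrays and OCI-Ly19.

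Single arrays without the wide ones, with the course as a random block, gave calls in SKMM1. UBE2L6, the E2 enzyme that passes ISG15 onto target proteins, fell, and OAS2, a synthetase that makes 2-5A in response to double-stranded RNA, rose. The estimates were -0.69 (SE 0.19, adjusted p = 0.0494 by limma) for UBE2L6 and 1.41 (SE 0.38, adjusted p = 0.0443 by limma) for OAS2, over 5 arrays of 2 courses. These were 1 of 40 members lower, against 0.992% of all features, and 1 of 40 higher, against 3.5%. Against shCtrl, UBE2L6 (-1.84, SE 0.26, adjusted p = 0.00183 by limma), PSMB9 (-0.81, SE 0.21, adjusted p = 0.0449) and BST2 (-0.83, SE 0.23, adjusted p = 0.0499) fell, 3 of 40 members against 3.03% of all features, and none rose, against 0.176%. That comparison rests on 3 arrays of 1 course, which is assumed to vary like the other courses. With the course mean as the unit, the same arrays gave no called member, and UBE2L6 had an adjusted p of 0.294 in SKMM1 and 0.361 against shCtrl by limma. UBE2L6 against shCtrl passed with each of the 9 other courses left out in turn. It also passed with the sign of repeat 3 turned (adjusted p = 0.0458 by limma), while PSMB9 (0.28) and BST2 (0.291) then did not. None of these changes touched the arrays against shCtrl, so the estimate of -1.84 could not move. Only the shared spread changed, which leaves the stability of this lone course untested. The SKMM1 calls depended on the courses used. No member was called without repeat 3 or without any 1 of the 3 H929 courses or the shCtrl course. Without either KMS12 course IFI44 was called and UBE2L6 and OAS2 were not. Without repeat 1 UBE2L6 was -0.19 (adjusted p = 0.735 by limma) and 4 members were called higher (MX2, OAS2, OAS3 and SP100). Leaving out a lymphoma course gave more calls in SKMM1, 9 without OCI-Ly19 and 12 without OCI-Ly7, with UBE2L6 and OAS2 among them. The shares of all features called with a course left out are not given here, so these counts do not set the members apart. With the sign of repeat 3 turned, UBE2L6 was -0.50 and OAS2 -1.30 in SKMM1, both with an adjusted p of 1 by limma. The labels do not say whether the shCtrl arrays used the same induced cells as SKMM1 repeat 1.

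**Figure D3:**
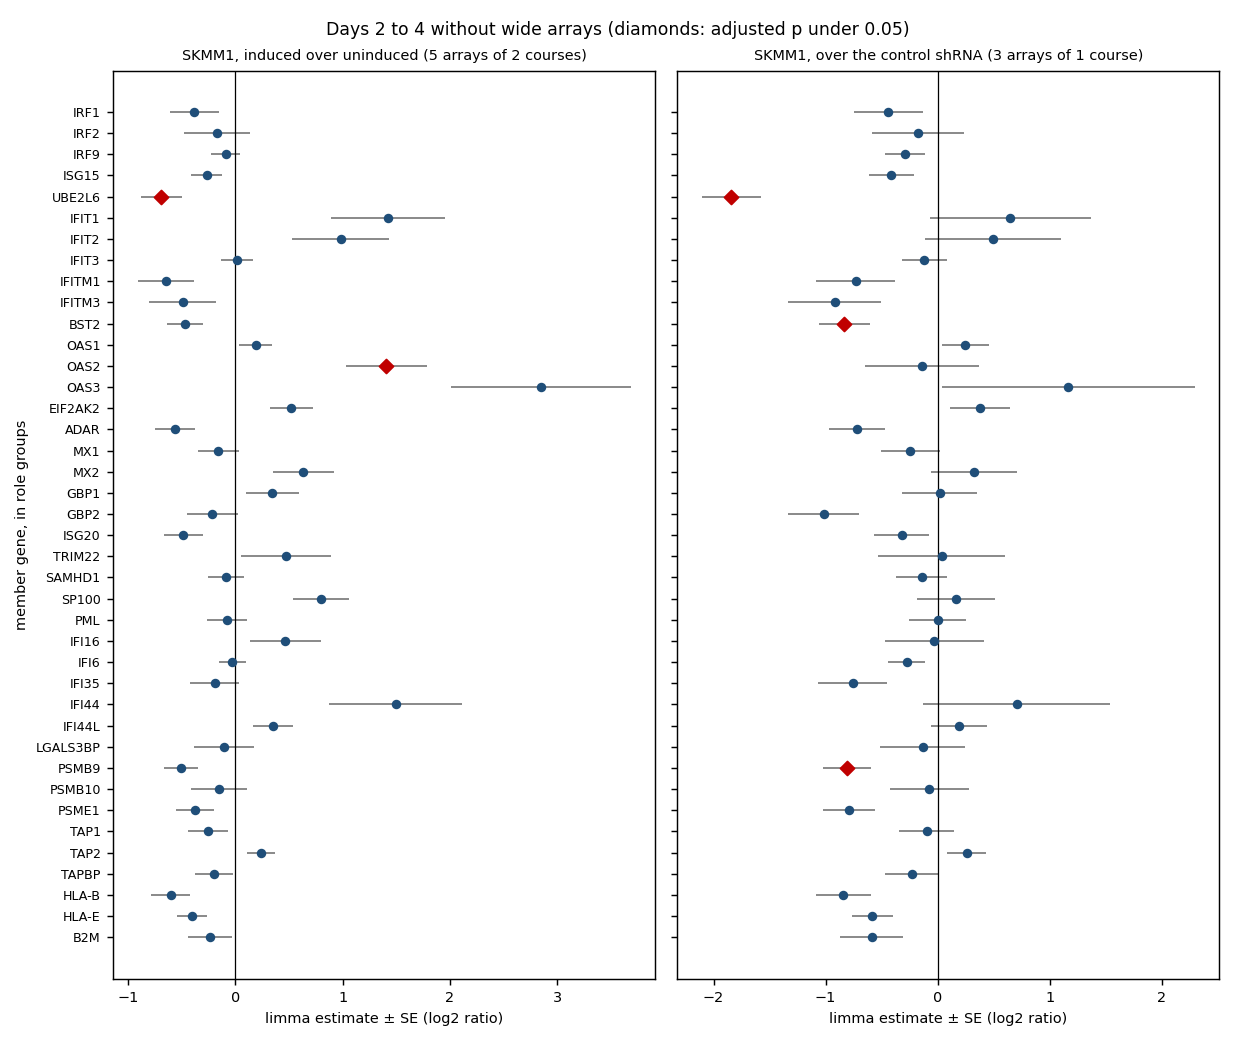
Estimates of the 40 members on days 2 to 4 without wide arrays, with bars of 1 SE, from limma on single arrays (log2 ratio on the horizontal axis). The left panel is SKMM1 against uninduced cells and the right panel SKMM1 against the control shRNA; diamonds are the members with an adjusted p under 0.05. UBE2L6 is the lowest member in both panels, at -0.69 and -1.84.

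The ISG15 system had 2 measured members, ISG15, a ubiquitin-like protein that is attached to other proteins, and UBE2L6. In SKMM1 repeat 1, UBE2L6 was -0.86 on day 2, -1.34 on day 3 and -1.08 on day 4; the same days gave -0.12, -0.36 and -0.38 in repeat 2, and -0.15, -0.23 and -0.51 in repeat 3. Against shCtrl it was -0.52 on day 1 and then -2.13, -1.60 and -1.79. All 13 of these values of days 1 to 4 were below 0, those of repeat 1 lower than those of repeats 2 and 3, and days 2 to 4 against shCtrl lowest of all. On day 5 it was -0.58 in repeat 1 (a wide array) and 0.48 in repeat 2. In H929 the values of days 2 to 4 ran from -0.41 to 0.60 and in KMS12 from -0.39 to 0.51, and in OCI-Ly19 they were 0.22 and 0.80. UBE2L6 had 1 probe, so no second probe checks it. ISG15 had 3 probes, all below 0 on average on the 5 SKMM1 arrays that were not wide. It was -0.29, -0.58 and -0.62 in repeat 1 and between -0.55 and -0.24 on the 4 arrays against shCtrl, but -5.45 on day 2 of repeat 2, a wide array. In repeat 3 it was 0.26, -0.23 and -0.08.

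Class I molecules had 3 measured members. HLA-B, a classical class I heavy chain, was -0.68, -0.86 and -0.83 over days 2 to 4 of SKMM1 repeat 1, 0.24, 0.13 and -0.03 in repeat 2, and -0.06, -0.68 and -0.15 in repeat 3. Against shCtrl it was -0.45, -0.69, -0.78 and -1.05 on days 1 to 4, and it was -0.91 and -1.29 in OCI-Ly19. HLA-B thus lay low in SKMM1 repeat 1, against shCtrl, in OCI-Ly19 and on day 3 of repeat 3, and nearer 0 in the other lines: days 2 to 4 ran from -0.33 to 0.54 in H929 and from -0.42 to 0.08 in KMS12. HLA-E, a non-classical class I molecule read by NK cell receptors, was low on the same arrays, with -0.51, -0.52 and -0.56 in repeat 1, -0.84 to -0.33 against shCtrl and -0.56 and -0.88 in OCI-Ly19. B2M, the light chain of all class I molecules, was -0.36, -0.73 and -0.69 in repeat 1, -1.03 to -0.29 against shCtrl and -0.48 and -1.24 in OCI-Ly19, but 0.21, 0.20 and 0.78 in repeat 3. None of the 3 passed the test on single arrays without wide ones: the SKMM1 estimates without wide arrays were -0.60 (SE 0.18, adjusted p = 0.059 by limma) for HLA-B and -0.40 (SE 0.14, adjusted p = 0.0783) for HLA-E. With array medians also removed, HLA-B and HLA-E passed in SKMM1 and HLA-B against shCtrl, all lower. With array weights HLA-B, HLA-E and B2M passed in SKMM1, and HLA-B and HLA-E against shCtrl, again lower, where 14% and 9.18% of all features were called lower. All 5 probes of HLA-B and all 9 of HLA-E averaged below 0 on those SKMM1 arrays and against shCtrl. HLA class I genes are near-identical over long stretches, so these cDNA probes may carry signal of other class I genes.

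**Figure D4:**
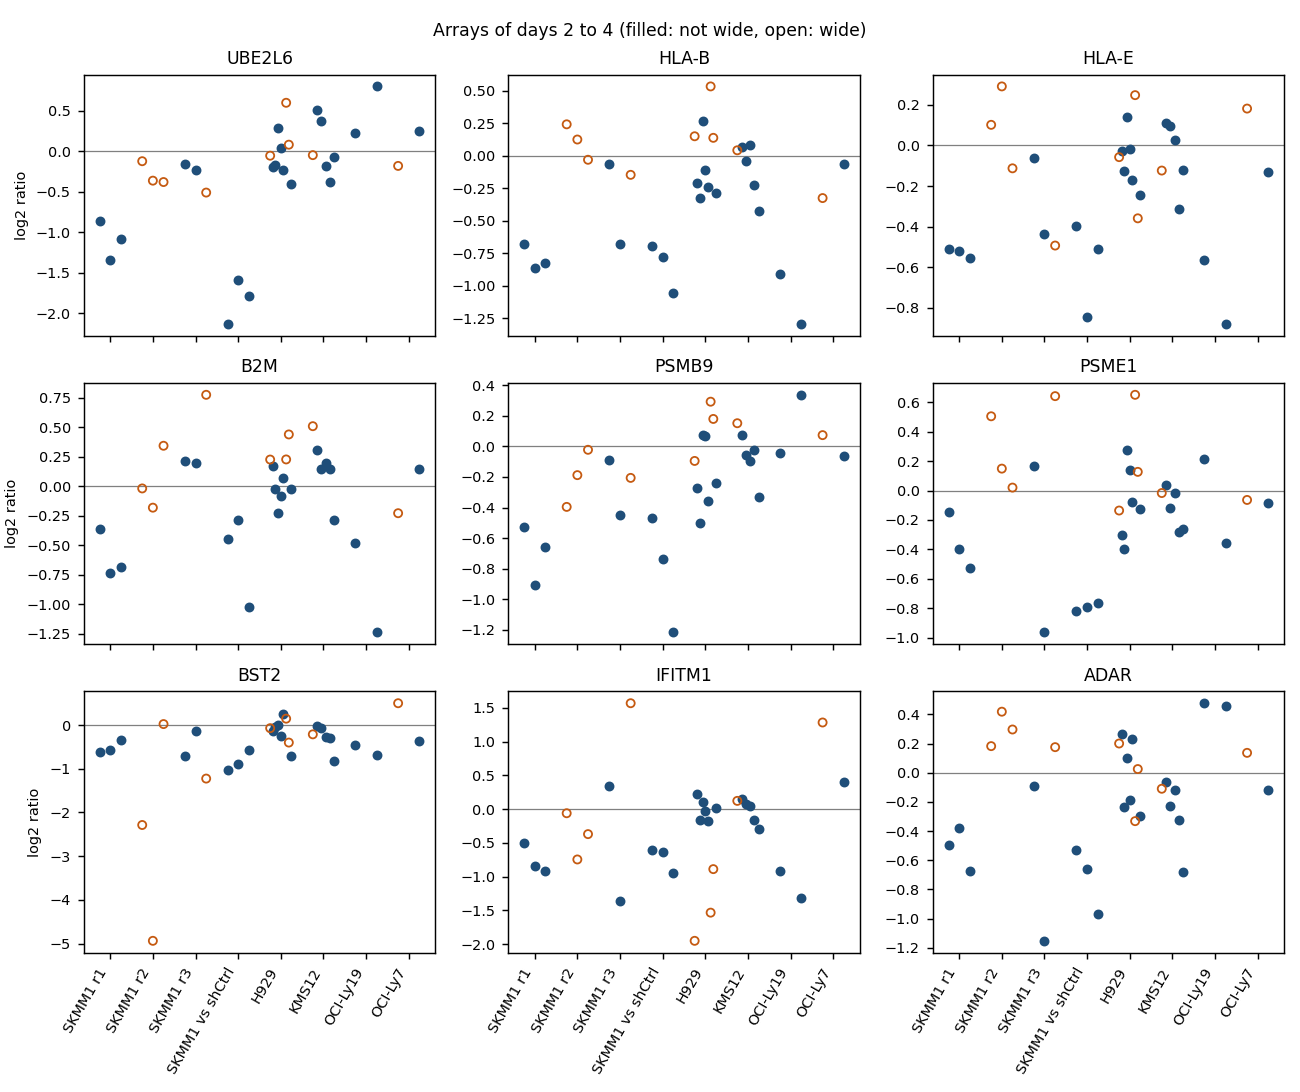
Log2 ratios of 9 members on the arrays of days 2 to 4, 1 point per array, by SKMM1 repeat (r1, r2, r3), SKMM1 against the control shRNA, and the other lines with their hairpins together. Filled points are arrays that are not wide and open points wide arrays; the vertical axes differ in range. HLA-B, HLA-E and B2M are lowest in SKMM1 r1, SKMM1 against shCtrl and OCI-Ly19.

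Of the immunoproteasome, PSMB9, PSMB10 and PSME1 were measured. PSMB9, a catalytic subunit, was -0.53, -0.91 and -0.66 on days 2 to 4 of SKMM1 repeat 1, -0.40, -0.19 and -0.02 in repeat 2, -0.09, -0.45 and -0.21 in repeat 3, and -0.34, -0.47, -0.74 and -1.22 on days 1 to 4 against shCtrl. It was below 0 on all of these arrays, and its 2 probes agreed closely on the SKMM1 arrays that were not wide (-0.53 and -0.52). PSME1, a subunit of the proteasome activator PA28, was -0.82, -0.79 and -0.76 on days 2 to 4 against shCtrl (estimate -0.79, SE 0.24, adjusted p = 0.0733 by limma on single arrays) and between -0.96 and 0.17 on the 5 SKMM1 arrays that were not wide. PSMB10, another catalytic subunit, ran from -0.86 to 0.53 on those 5 arrays, with both signs. In H929 and KMS12 without wide arrays the course means of PSMB9 averaged -0.23 and -0.07.

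The peptide loading genes did not share 1 sign. TAP1, a subunit of the peptide pump, was -0.40, -0.34 and 0.27 in SKMM1 repeat 1 and -0.11, -0.61, 0.26 and 0.06 against shCtrl, so that it had both signs where its divergent neighbour PSMB9 had 1. TAP2, the partner subunit, was 0.61, 0.36 and 0.44 in repeat 1 and 0.51, 0.63, 0.06 and 0.08 against shCtrl, and it lay above 0 on all 6 H929 arrays and all 5 KMS12 arrays of days 2 to 4 that were not wide, which held for 1 of 40 members in H929, against 3.2% of all features, and 2 of 40 in KMS12, against 6.46%. Its estimate in the myeloma response without wide arrays was 0.18 (SE 0.07, adjusted p = 0.2 by limma). Its 2 probes differed, at -0.01 and 0.55 on average on the SKMM1 arrays that were not wide. TAPBP, tapasin, was -0.35, -0.34 and -0.23 in repeat 1 and -0.45 to -0.04 against shCtrl.

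Membrane factors had 3 measured members. BST2, or tetherin, which holds budding virus at the cell surface, was -0.61, -0.58 and -0.34 in SKMM1 repeat 1, -0.71, -0.14 and -1.22 in repeat 3, and -0.62, -1.03, -0.90 and -0.58 on days 1 to 4 against shCtrl. In repeat 2 it was -2.29, -4.94 and 0.02, all on wide arrays, so its size there is not comparable. Its myeloma estimate without wide arrays was -0.31 (SE 0.09, adjusted p = 0.0914 by limma), and it lay below 0 in 6 of 7 courses. IFITM1 and IFITM3, which block virus entry, were -0.50, -0.85 and -0.92 and -0.45, -0.78 and -0.58 in repeat 1. In repeat 3 they had both signs, with 0.35, -1.37 and 1.57 for IFITM1 and 0.27, -0.97 and 0.34 for IFITM3. Both were low in OCI-Ly19, at -0.92 and -1.32 for IFITM1 and -1.64 and -1.18 for IFITM3, and above 0 on both arrays labelled OCI-Ly7. The IFITM genes are close copies of each other, and their probes may share signal.

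The enzymes of the double-stranded RNA response split. ADAR, which edits double-stranded RNA and restrains its sensing, was -0.50, -0.38 and -0.68 in SKMM1 repeat 1, 0.18, 0.42 and 0.30 in repeat 2, -0.09, -1.15 and 0.17 in repeat 3, and -1.09, -0.53, -0.66 and -0.97 against shCtrl. It was above 0 in OCI-Ly19, at 0.48 and 0.46. OAS3, a large synthetase of the same family as OAS2, was 1.32, 0.99 and 1.29 in repeat 1, -3.66, -3.04 and -1.78 in repeat 2 and 5.83, 3.88 and 3.04 in repeat 3. Its 3 repeats did not overlap. The array medians over all features had the same order: -1.026 to -0.374 in repeat 2, 0.035 to 0.102 in repeat 1 and 0.105 to 0.424 in repeat 3. All 3 arrays of repeat 2 and day 4 of repeat 3 were wide. The share of all features in this order was not computed. OAS2 was 0.14, 0.20 and 0.08 in repeat 1, -3.74, -4.25 and -1.71 in repeat 2 and 3.17, 2.74 and 1.19 in repeat 3. The call of OAS2 in SKMM1 thus rests on repeat 3; without that course its estimate was 0.14 (adjusted p = 0.882 by limma on single arrays). Its 2 probes averaged -0.18 and 2.71 on the 5 SKMM1 arrays, so 1 of the 2 carried the change. OAS1 lay near 0 in repeat 1 (-0.18 to -0.06), and EIF2AK2, the kinase PKR, was 1.02, 0.31 and 0.61 there, -4.13, -7.35 and -1.17 in repeat 2 and 0.28, 0.45 and 1.36 in repeat 3.

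The IFIT family, proteins that bind foreign RNA, had the order of OAS3 over the SKMM1 repeats in IFIT1 and IFIT2 and not in IFIT3. The array medians over all features had that order too, so it does not set these genes apart. IFIT1 was 0.66, 1.00 and 0.63 in SKMM1 repeat 1, -2.97, -1.73 and -4.76 in repeat 2, 2.69, 1.76 and 1.74 in repeat 3, and 0.58, 0.89, 0.40 and 0.66 against shCtrl. IFIT2 ran from 0.31 to 0.72 in repeat 1, from -5.17 to -3.03 in repeat 2 and from 0.90 to 2.33 in repeat 3. It was above 0 on the 5 SKMM1 arrays that were not wide (0.31 to 2.24) and on the 4 against shCtrl (0.09 to 0.81). IFIT3, with 1 probe, stayed between -0.65 and 0.53 on the 24 myeloma arrays of days 2 to 4. Neither IFIT1 (1.42, SE 0.53, adjusted p = 0.101 by limma) nor IFIT2 (0.98, SE 0.45, adjusted p = 0.171) passed the test in SKMM1 without wide arrays.

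Among the transcription factors, IRF1, which activates class I and immunoproteasome genes, was -0.99, -0.16 and -0.25 in SKMM1 repeat 1 and -0.65, 0.09 and -0.89 in repeat 3. In KMS12 the 3 shCasp10-3 values were -0.46, -0.67 and -1.05, and those of shCasp10-2 were -0.58, 0.17 and 0.05. In H929 it was -2.73, -2.22 and -0.35 with shCasp10-3, the first 2 on wide arrays, and between -0.52 and 0.28 with shCasp10-2. The difference between the hairpins (H929 and KMS12) was -1.20 (SE 0.36, adjusted p = 0.98 by limma) on all arrays and -0.57 (SE 0.22, adjusted p = 0.474) without wide ones, so it did not pass the test. IRF9, which binds the response element with the STATs, had line means from -0.07 to 0.07 without wide arrays, and IRF2 from -0.23 to 0.03.

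The GTPases were MX1 and MX2, which trap viral particles, and GBP1 and GBP2, guanylate-binding proteins. With every course kept, they gave no call on course means or on single arrays without wide ones. GBP2 was called lower against shCtrl with array medians also removed (4.62% of all features lower) and with array weights (9.18%). With array weights it was also called lower in the myeloma response (13%). GBP1 had the highest mean of the group over the 3 lines without wide arrays (0.23) and GBP2 the lowest (-0.23). GBP2 was -0.33, -0.69, -1.01 and -1.35 on days 1 to 4 against shCtrl (estimate -1.02, SE 0.32, adjusted p = 0.0888 by limma on single arrays), and -0.54, -0.27 and -1.04 in SKMM1 repeat 1 but 0.33, 0.23 and 0.34 in repeat 3. MX2 was 0.27, 0.17 and -0.05 in SKMM1 repeat 1 and 0.82, 1.68 and 1.38 in repeat 3. MX1 was -0.66 and -1.33 in OCI-Ly19 and between -0.52 and 0.17 on the SKMM1 arrays of days 2 to 4 that were not wide.

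Among the nuclear and nucleic acid factors, ISG20, an RNA exonuclease, was below 0 on all 9 SKMM1 arrays of days 2 to 4, from -0.93 to -0.01, and on the 4 against shCtrl, from -0.59 to -0.07. SP100, a protein of PML nuclear bodies, was 0.32, 0.11 and 0.17 in SKMM1 repeat 1, 1.45, 1.63 and 1.57 in repeat 3 and -3.75, -4.17 and -1.67 in repeat 2. PML had line means from -0.14 to -0.02 without wide arrays. SAMHD1, which breaks down nucleotides, was below 0 on all 6 H929 arrays and all 5 KMS12 arrays of days 2 to 4 that were not wide. It was 1 of 40 such members in H929, against 3.62% of all features, and among 6 of 40 in KMS12, against 15.1%, so the members' shares were near those of all features. Its line means without wide arrays were -0.29, -0.39 and, in SKMM1, -0.07. IFI16, a DNA sensor, had the highest mean of the group over the 3 lines without wide arrays (0.23), and TRIM22 had both signs in each of the 3 myeloma lines.

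Of the other interferon-induced genes, IFI44, read by 1 probe, had the lowest mean over the 3 lines. It was 1.41, 0.84 and 1.53 in SKMM1 repeat 1 and -3.24, -4.33 and -5.29 in KMS12 with shCasp10-2 (days 2 to 4), but -1.27, 0.52 and -0.01 there with shCasp10-3. The KMS12 estimate without wide arrays was -2.30 (SE 0.62, adjusted p = 0.44 by limma). IFI44L, a related gene, was -0.50, -1.27 and -0.47 on the same KMS12 arrays with shCasp10-2. IFI6, an antiapoptotic protein of mitochondria, had line means from -0.04 to 0.12 without wide arrays, and -0.23 in SKMM1 with them, where day 3 of repeat 2 was -2.18. IFI35 was -0.84, -1.20 and -0.23 on days 2 to 4 against shCtrl, and LGALS3BP, a secreted glycoprotein, had both signs in each of the 3 myeloma lines.

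SKMM1 was set against the other myeloma lines, and no member passed (smallest adjusted p 0.0646 for OAS2, 1.87 higher in SKMM1 by limma on single arrays without wide ones). By the same fit UBE2L6 was 0.66 lower in SKMM1 (estimate -0.66, SE 0.23, adjusted p = 0.123) and HLA-B 0.47 lower (estimate -0.47, SE 0.22, adjusted p = 0.224). On the 3 arrays of SKMM1 repeat 1, 21 of 40 members lay below 0 each time, against 26.8% of all features, and 10 above, against 37.8%. On the 4 arrays against shCtrl, 16 of 40 lay below 0 each time, against 22.5% of all features, and 8 above, against 28%. On the 5 SKMM1 arrays of days 2 to 4 that were not wide, UBE2L6, BST2, ADAR, ISG20, PSMB9, TAPBP, HLA-B and HLA-E lay below 0 on all 5, 8 of 40 against 10.7% of all features, and the same 8 lay below 0 on all 4 arrays against shCtrl as well, against 7.53%. IFIT1, IFIT2, OAS3, SP100 and IFI44 lay above 0 on all of these arrays, 5 of 40 against 20% of all features. Both sets take repeat 3 as deposited. Once that repeat was turned, none of the 8 and none of the 5 kept 1 sign, which follows from how the sets were picked. With it turned, IRF9, OAS1, GBP2, TRIM22 and B2M lay below 0 on all 5 SKMM1 arrays, 5 of 40 against 4.89% of all features. GBP2 and B2M also did so on the 4 against shCtrl, 2 of 40 against 2.59%. In OCI-Ly19 17 of 40 were below 0 on both arrays, against 34.6%. On the arrays labelled OCI-Ly7 it was 5 of 40, against 18.8%, and 20 of 40 lay above 0, against 51.2%. Between myeloma and lymphoma, IFI44L (-1.02, SE 0.41, adjusted p = 0.639 by limma) and IFI35 (-0.53, SE 0.22, adjusted p = 0.639) had the lowest p, and none passed.

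The hairpins could be compared in KMS12, where 12 of 40 members were higher on both shCasp10-2 arrays of days 3 and 4 than on all 3 shCasp10-3 arrays of days 2 to 4, against 12.5% of all features. They were IRF1, IRF9, ISG15, UBE2L6, IFITM1, IFITM3, BST2, GBP2, LGALS3BP, PSMB10, TAP1 and HLA-E. Another 7 were lower, against 19.3%: IFIT2, OAS1, OAS2, ISG20, SP100, IFI44 and IFI44L. Day 2 of shCasp10-2 was a wide array and is left out, so the days differ, and each hairpin is 1 course. The change per day within a course (8 courses) had the lowest p for GBP1 (0.67 per day, SE 0.23, adjusted p = 0.399 by limma) and EIF2AK2 (0.54 per day, SE 0.21, adjusted p = 0.399), and none passed. These slopes kept the wide arrays. On the wide day 2 arrays GBP1 was -2.53 (H929 shCasp10-2 repeat 1), -2.27 (H929 shCasp10-3), -2.99 (KMS12 shCasp10-2) and -1.80 (SKMM1 repeat 2). The slopes of both genes without wide arrays are not given here.

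Members differed in how often they had the sign of the tail on a wide array. The median was 10 of 12 arrays for the 31 interferon genes, the same as over all features, and 7 of 12 for the 9 genes of the class I machinery; the difference was not tested. On 10 of the 12 wide arrays the probes beyond 3 lay mostly below -3, and on 2 (SKMM1 repeat 3 day 4 and OCI-Ly7 day 3) mostly above 3. On every one of the 12, IRF9, IFIT1, OAS1, OAS2, OAS3, EIF2AK2, MX2, GBP1, SAMHD1, SP100 and IFI16 had the sign of the array's tail, 11 of 40 members against 18.1% of all features. None of the 9 genes of the class I machinery did so on all 12: TAPBP had that sign on 11, TAP2 on 10, HLA-E on 8, PSMB9 and PSMB10 on 7, PSME1 on 6, B2M on 4, HLA-B on 2 and TAP1 on 1. When the wide arrays were left out, 14 of 40 members changed the sign of their SKMM1 mean, 9 in H929, 3 in KMS12 and 13 in the mean of the 3 lines. The 14 in SKMM1 were IFIT1, IFIT2, OAS1, OAS2, EIF2AK2, MX2, GBP1, TRIM22, SP100, IFI16, IFI35, IFI44, IFI44L and TAP2. The shares over all features were not computed, so these counts do not set the members apart. On the 8 wide myeloma arrays of days 2 to 4, 12 of 40 members stayed within 1 of 0 each time (UBE2L6, IFIT3, ADAR, ISG20, IFI35, PSMB9, PSMB10, PSME1, TAP1, HLA-B, HLA-E and B2M), against 18.6% of all features, while 19 went beyond 3 at least once, against 57%. The 2 SKMM1 repeat 3 arrays that were not wide had 5.48% and 7.48% of probes above 3, against 0.184% or less in repeat 1, and OAS2, OAS3, IFIT1 and SP100 were higher on them than in repeat 1. Whether the OAS2 call rests on these tails was not tested. Without scanner intensities, how far a probe stood above background could not be read.

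**Figure D5:**
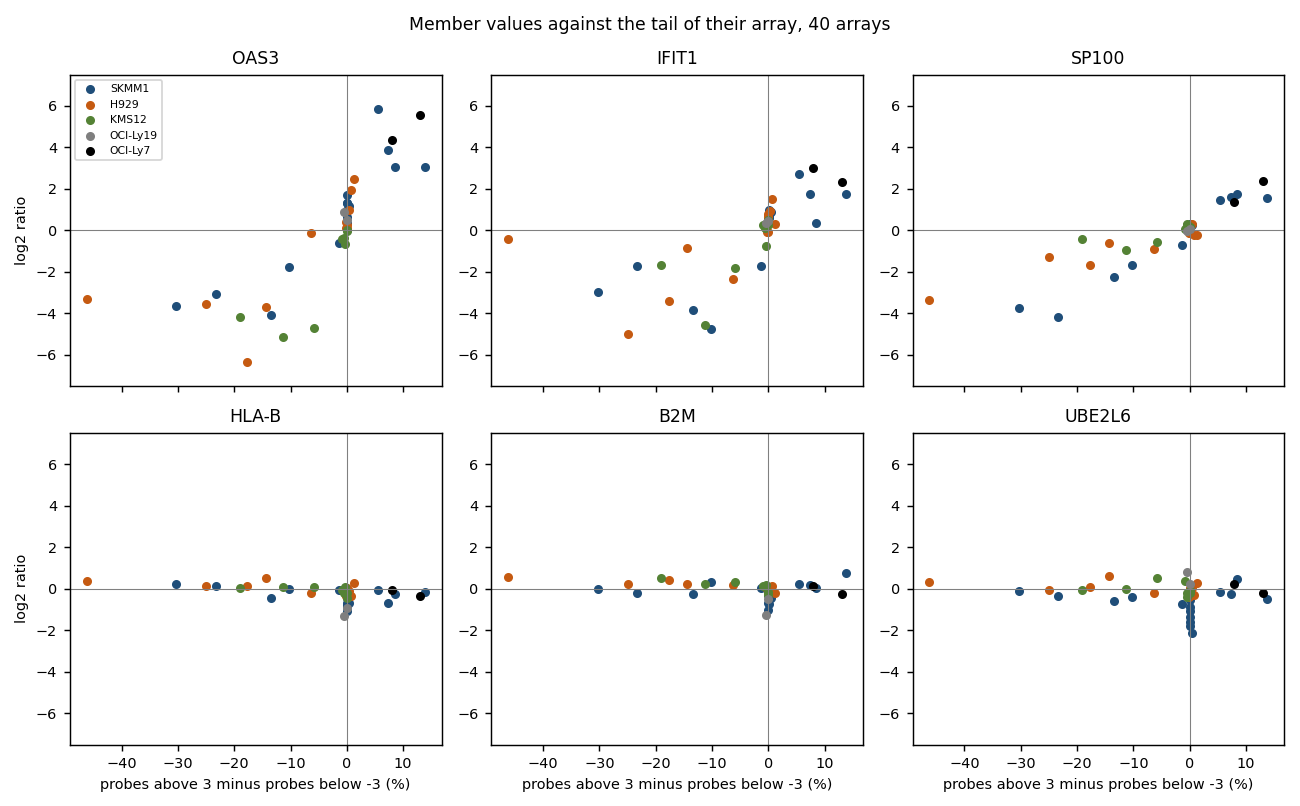
Log2 ratios of 6 members on all 40 arrays (vertical axis) against the tail of each array, the percentage of probes above 3 minus that below -3 (horizontal axis); colours are the lines. On the 12 wide arrays OAS3, IFIT1 and SP100 have the sign of the tail, while HLA-B, B2M and UBE2L6 stay within 1 of 0 on the wide myeloma arrays of days 2 to 4.

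Of the other genes of the pathway (receptors, kinases, sensors, adaptors and class I cofactors), 44 were measured, and none was called on course means of all arrays. On single arrays without wide ones, IRF3 (-0.26, SE 0.06, adjusted p = 0.0313 by limma), the factor that switches on type I interferon genes, and MYD88 (-0.25, SE 0.06, adjusted p = 0.0454), an adaptor of Toll-like receptors, fell in the myeloma response, 2 of 44 against 1.22% of all features. On course means of the same arrays none of the 44 was called in the myeloma response, in SKMM1 or against shCtrl. In SKMM1, IRF3 fell (-0.37, SE 0.10, adjusted p = 0.046), and TLR9, a sensor of DNA (2.18, SE 0.55, adjusted p = 0.037), and SP140, a nuclear body protein (1.09, SE 0.31, adjusted p = 0.0493), rose, 1 of 44 lower against 0.992% and 2 of 44 higher against 3.5% of all features. Against shCtrl, RFX5, a subunit of the complex that binds MHC promoters, fell (-0.61, SE 0.16, adjusted p = 0.0409), 1 of 44 against 3.03% of all features. Markers of other cells gave no call in the same fit: in SKMM1 and against shCtrl 0 of 14 T and NK cell genes passed (medians -0.30 and -0.57), 0 of 5 myeloid (0.47 and -0.05), 0 of 8 mature B cell (0.43 and 0.35) and 0 of 7 plasma cell genes (-0.07 and -0.05). With array weights, the fit that called most members, 8 of the 14 T and NK cell genes were called lower in SKMM1 and 5 against shCtrl, against 14% and 9.18% of all features; their part in the members' calls was not tested.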

How the data were processed

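Induced and reference RNA of cell lines was hybridised to 2-colour lymphochip arrays. The authors deposited 1 log2 ratio per probe and array (15246 probes, 40 arrays, 0 missing), with the ratio, dyes (50 µg of RNA each) and times per the labels; for the log base, background correction and normalisation, "not given in the sources used here" applies, and scanner intensities were not used. Array medians differ, and the main fit took the values as deposited, without centring. Probes were named by the platform annotation (10169 with 1 symbol, 4 with several, 5073 not listed) and 10128 Entrez identifiers matched RefSeq, with 0 symbols changed. A gene's value is the mean of its probes, and unnamed probes stand alone, which gave 9681 features. Members and lists were chosen with earlier results of these data known.

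Each course was averaged over days 2 to 4 (lymphoma, days 3 and 4) and modelled in limma 3.58.1 (R 4.3.3; lmFit and eBayes), with Benjamini-Hochberg over all features, threshold 0.05; the 11 courses formed 5 groups with 1 shared spread. 3 arrays without a repeat number entered no fit. Alternatives used centred arrays, no wide arrays, single arrays with the course as a random block (consensus correlation from every 8th feature), array weights, medians over probes, turned signs, all days, and courses left out. The fits were also run on simulated data with normal noise. These data held no wide arrays, tails to 1 side or opposed repeats, so they do not test how the fits handle those. Members were described by role group; values are given for those called with or without wide arrays and for the highest and lowest of each group.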

Additional observations from a re-analysis of the deposited data

Results flagged for a closer look

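Among the 8 myeloma courses, 12 of the 40 members had 1 course whose mean over days 2 to 4 stood apart from the other 7, by a gap of over 0.526 of the range (Dixon's criterion). The criterion gives about 1 in 20 by chance for courses of equal spread, which these are not. The share over all features was not computed, so the count is not a result about the members. In 8 of the 12 the course was SKMM1 repeat 2, whose 3 arrays are all wide: EIF2AK2 at -4.22 (other courses -0.78 to 0.70), GBP2 at -2.82 (-1.08 to 0.30), BST2 at -2.40 (-0.69 to 0.01), ISG15 at -2.08 (-0.50 to 0.14), MX1 at -1.20 (-0.27 to 0.12), IRF9 at -0.90 (-0.28 to 0.22), IFI6 at -0.69 (-0.11 to 0.17) and TAP2 at -0.65 (-0.05 to 0.47). In 3 it was SKMM1 repeat 1, with no wide array on these days: UBE2L6 at -1.09 (other courses -0.30 to 0.28), HLA-B at -0.79 (-0.30 to 0.13) and PSMB9 at -0.70 (-0.29 to 0.08). IFIT3, with 1 probe, stood apart in H929 with shCasp10-3 at -0.25 (-0.05 to 0.12), a course with 2 wide arrays.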

How the results depend on the processing

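On course means of all arrays no member was called, and the count stayed at 0 without wide arrays, with array medians removed, with medians over probes, with the sign of SKMM1 repeat 2 or 3 turned, over all days, and with each course left out (0 to 0 in all 9 comparisons). Fits on single arrays gave more. Without wide arrays 2 members were called in SKMM1 and 3 against shCtrl; with array medians also removed, 8 and 5 (7.21% and 4.96% of all features); with repeat 3 turned, 0 and 1. Array weights gave 15 in the myeloma response, 15 in SKMM1, 7 between SKMM1 and the other lines and 10 against shCtrl (18%, 22%, 7.25% and 10.5% of all features), with a weight of 10.19 for day 3 of SKMM1 repeat 1. Leaving out 1 course from the single-array fit without wide arrays gave 0 to 1 in the myeloma response, 0 to 12 in SKMM1, 0 to 1 in KMS12, 0 to 6 between SKMM1 and the other lines, 0 to 1 between hairpins, 0 to 1 between myeloma and lymphoma, and 1 to 7 against shCtrl; the largest counts for SKMM1 and shCtrl came without OCI-Ly7. The cause was not tested. Shares of all features are not given here for left-out courses or for repeat 3 turned, so those counts do not set the members apart. Turned signs without wide arrays were chosen after seeing the data.

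For the 8 members called or nearly called in SKMM1 or against shCtrl (UBE2L6, PSMB9, BST2, HLA-B, HLA-E, ADAR, OAS2 and OAS3), 24 of 436 values under alternatives changed sign, all in SKMM1 and in 4 genes. Many of the 436 could not change sign. Against shCtrl, turned signs and left-out courses could not move the estimate. On course means, leaving out a course of another group could not move the SKMM1 estimate. The count of 24 is thus no measure of stability. Other members were not run through all alternatives. Of all 40, 14 changed the sign of their SKMM1 mean without wide arrays, a count with no share over all features beside it. BST2 became 0.40 with repeat 2 turned. ADAR became 0.05 with repeat 3 turned on course means, and 0.01 with repeat 3 turned on single arrays without wide ones. The SKMM1 estimate of OAS2, below 0 on course means with all arrays kept, became 1.55 without wide arrays on course means. It became 1.41 on single arrays without wide ones and 1.29 with medians also removed. With array weights it was 0.35, with repeat 2 turned 1.91 and over all days 0.09. Leaving out courses gave -1.55 to 1.25 on course means and 0.14 to 2.96 on single arrays. OAS3 became -1.96 with repeat 3 turned on course means, and -1.62 with repeat 3 turned on single arrays without wide ones. Leaving out courses gave -0.81 to 2.73 on course means and 1.20 to 4.86 on single arrays. The repeat number marks a course, so the replicate block enters only the change per day; without it 0 members were called as well. The arrays' number and unknown signal over background limit these values.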
